A study of Bos taurus with 10 samples.

Results

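Heat shock proteins and chaperonins were followed in bovine oocytes before and after in vitro maturation. Members were taken by gene symbol: the HSP70 and HSP110 proteins (HSPA, HSPH1), the small heat shock proteins (HSPB), HSP90, the mitochondrial chaperonin (HSPD1, HSPE1), the J proteins (DNAJA, DNAJB, DNAJC, without DNAJC19), the chaperonin TRiC (CCT, TCP1), prefoldin (PFDN), the BAG proteins, HSPBP1, STIP1, AHSA1, the heat shock factors (HSF), calreticulin, calnexin, the PDIA disulfide isomerases and the FKBP prolyl isomerases. The rule found 126 probe sets of 84 genes, out of 24016 probe sets tested and 9155 named genes, and no measured value entered it. The IVM group was 5 arrays of cow oocytes that had spent 24 h in maturation medium inside their cumulus complexes, in a medium kept at 39°C that held 10% fetal calf serum and epidermal growth factor at 10 ng/ml. The immature group was 5 arrays of oocytes stripped of cumulus and frozen at once (0 h). Both groups came from follicles of 3 to 8 mm on abattoir ovaries, and each array carried RNA of a pool of oocytes on which no cumulus was left to the eye, so one animal or one oocyte was never measured alone. Values are log2 levels on the Affymetrix bovine array, 1 per probe set and array, and a difference is IVM minus immature on this scale.

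Chaperones bind unfolded protein chains and release them for folding. HSP70 does so in a cycle of ATP hydrolysis that J proteins start and nucleotide exchange factors end, and STIP1 hands clients on to HSP90. TRiC is a ring that folds tubulin and actin, chains that prefoldin can deliver to it, and HSPD1 with its lid HSPE1 does comparable work in mitochondria. HSF1 is the transcription factor that turns on heat shock genes. A fully grown oocyte draws during maturation on RNA and protein stored during growth. Reports conflict on whether it makes new RNA once meiosis resumes. From qPCR of a few genes with the inhibitor α-amanitin, the authors of these arrays propose that bovine oocytes make some.

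Of the 126 probe sets, 75 (59.5%) varied between arrays by at least 0.01, against 39.4% of all probe sets. The other 51 were flat to within 0.01, as FARMS, the summary method the authors used, sets probe sets whose probes share no signal, and a flat value is no measure of a level that stayed the same. This group held every probe set of CCT8, PFDN2, PFDN4, PFDN6, PDIA4, BAG3, BAG6, FKBP5, HSPB2, HSPB3, HSPB6, HSPB8 and HSF4 among others. The added poly-A control transcripts averaged 7.95 ± 0.20 on IVM arrays and 7.02 ± 0.15 on immature arrays (SD, n = 5 each), and all 5 IVM arrays lay above all 5 immature arrays (p = 0.00794 in a two-sided exact permutation test, the lowest value 5 against 5 allows). The arrays had been set to one distribution before deposit, with medians of 7.04 to 7.10, so a level is relative to the other transcripts on its array. Centring on the poly-A controls moved the median of all probe sets by -0.94 and turned 19 member differences that were above 0 negative, of which 0 had passed the threshold below. Hybridization controls were at 9.38 to 9.73 on immature replicates 1, 2 and 3 and at 10.75 to 11.22 on the other 7 arrays. Oocyte marker transcripts such as ZP3 were measured in both groups, with list means of 9.60 to 10.96 on IVM arrays against 12.37 to 12.86 on immature arrays, and 7 of 9 of them were lower in IVM oocytes, 3 past the threshold below. The part of this shift in the falls of the members was not tested.

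After maturation, 15 member probe sets, each of a different gene, fell and 1 rose at an adjusted p under 0.0001 (limma, Benjamini-Hochberg over all 24016 probe sets). That is 11.9% of the members lower and 0.794% higher, where 4.81% and 0.974% of all probe sets were. With each gene counted once by its probe set of highest mean, 13 genes fell, since those of BAG2 and DNAJB1 did not pass. Among varying probe sets alone, 20% of members fell, against a background of 12.1%, and 1.33% rose, against 2.38%. At an adjusted p under 0.05, 39 of the 126 were lower and 16 higher (31% and 12.7%, against 15.0% and 15.5% of all probe sets). The groups of arrays did not overlap for 32 lower and 13 higher members, where 11.5% of all probe sets were lower without overlap and 10.6% higher. Over the 75 varying members the differences ran from -5.46 for DNAJB1 to 2.55 for HSPB1 with a median of -0.50, against a median of 0.18 over all 9460 varying probe sets.

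The calls at 0.0001 depended on how the arrays were paired and which were used. By the methods, the complexes were divided between immediate stripping and maturation, and the replicates were days of collection, so pools with the same number may share a day. With the replicate number as a block, limma passed 0 members and 0 of all probe sets at 0.0001, the lowest adjusted p being 1.76e-04. Every replicate number occurs in both groups, so by design the block leaves each difference as it was. The 16 members had adjusted p of 6.31e-04 to 0.0071 there. Before adjustment 39 members were lower and 18 higher at p under 0.05 (31.0% and 14.3%, against 17.0% and 19.7% of all probe sets). When the blocked fit was restricted to varying probe sets, 12 members fell and 1 rose at 0.0001, where 9.83% and 1.82% of all varying probe sets did. On the arrays at one level of the hybridization controls (5 IVM against immature replicates 4 and 5), limma likewise passed 0 members, where 0.0167% of all probe sets were lower and 0 higher. Before adjustment 36 members were lower and 15 higher there at p under 0.05 (28.6% and 11.9%, against 13.8% and 12.8% of all probe sets). The 16 had adjusted p of 2.99e-04 to 0.0104 and differences of 0.89 to 1.12 times those on all arrays, such as -5.56 for DNAJB1 and -3.82 for HSPA2. These arrays are among those of the main fit, so part of that closeness is built in. Leaving out each array in turn kept 11 of the 16 calls every time, and the other 5 are marked below.

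**Figure D1:**
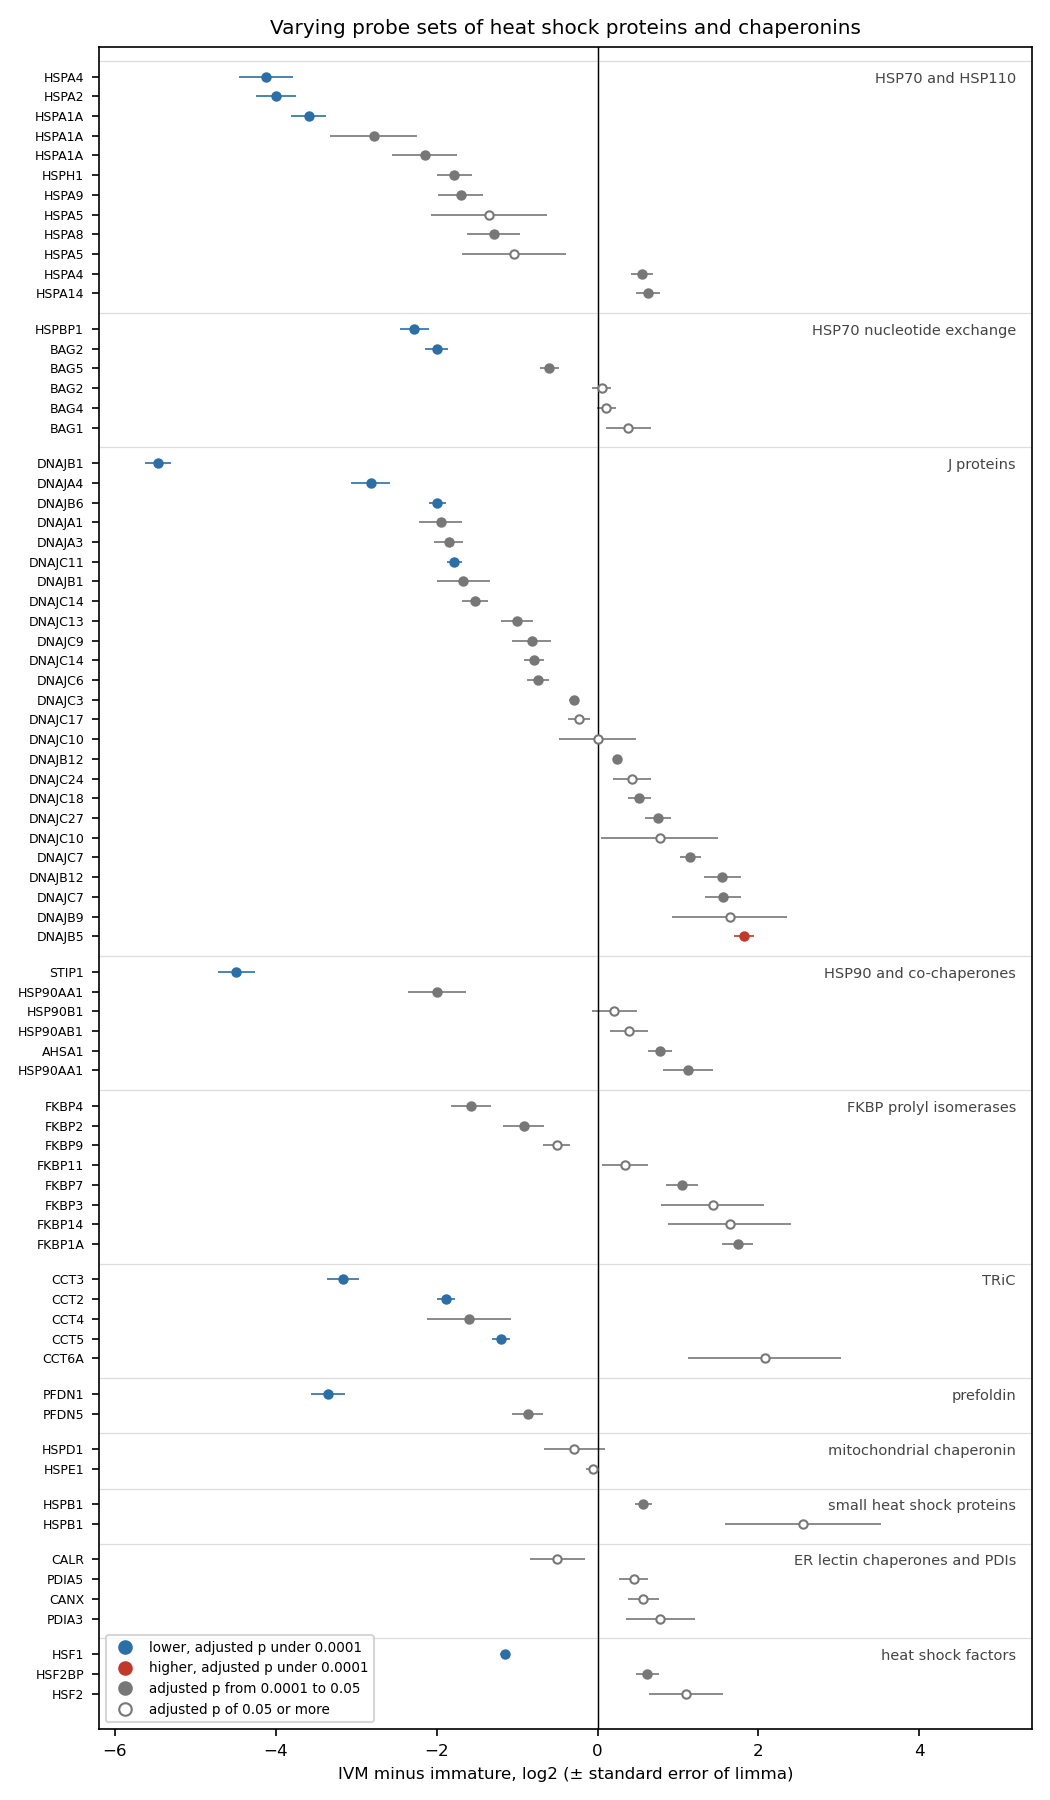
Differences (IVM minus immature, log2) of the 75 varying member probe sets, in groups by role, with bars for the standard error of limma. The 15 blue points (fell) reach from -5.46 to -1.15, and DNAJB5 at 1.82 is the red point that rose.

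Among HSP70 and HSP110 proteins, 3 of 22 probe sets fell, 0 rose and 12 varied. Of the 12, 10 were lower in IVM oocytes, with a median difference of -1.74. Of all 9460 varying probe sets 4025 were lower, with a median difference of 0.18. Beside the counts of this and the later groups stand the 4.81% of all probe sets, and 12.1% of varying ones, that fell. HSPA2, an HSP70 known for its role in male meiosis, had levels of 7.97, 7.48, 7.48, 6.85 and 8.18 on the 5 IVM arrays (replicates 1 to 5), against 11.58, 11.85, 11.70, 11.21 and 11.61 on the immature arrays. Every IVM array was thus far below every immature array, and HSPA2 fell by 4.00 ± 0.25 on the log2 scale (SE, adjusted p = 8.18e-06), or 16-fold. HSPA1A, the stress-inducible HSP70, was the symbol of 3 varying probe sets. The one past the threshold (Bt.23161.2.A1_at) stood at 9.71, 8.87, 9.12, 8.54 and 9.13 on IVM arrays, against 12.69, 12.35, 12.71, 12.57 and 13.00 on immature arrays. No arrays overlapped, and the difference was -3.59 ± 0.22 (adjusted p = 6.62e-06). The other 2 differed by -2.15 and -2.78 (adjusted p = 0.00393 and 0.0051), also without overlap, and immature replicate 2 was the lowest immature array on both, at 9.88 and 9.19. The annotation puts the first of these and the other 2 under different gene identifiers that share the symbol. HSPA1A has a near-identical copy, HSPA1B, so its probes may read both genes.

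HSPA4, an HSP110-type protein that helps HSP70 exchange its nucleotide, gave a different answer on each of its varying probe sets. On Bt.22168.1.A1_at it was at 7.56, 8.69, 8.22, 9.05 and 7.23 in IVM oocytes, against 12.34, 12.11, 12.36, 12.21 and 12.34 in immature oocytes, and fell by 4.12 ± 0.34 on the log2 scale (adjusted p = 4.11e-05). The IVM arrays were widely spread and the immature arrays tight. This call was kept only without IVM replicate 4 or 5, and leaving out any of the other 8 arrays gave an adjusted p of 1.41e-04 to 2.69e-04. HSPH1, the other HSP110, had levels of 10.61, 10.73, 10.09, 11.02 and 10.14 in IVM oocytes, against 11.96, 12.61, 12.55, 12.05 and 12.32 in immature oocytes. Its difference of -1.78 ± 0.22 came without overlap but missed the threshold (adjusted p = 4.20e-04).

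Other HSP70 proteins missed the threshold. HSPA8, the main HSP70 of the unstressed cytosol, was at 11.48, 12.14, 11.79, 12.94 and 11.08 on IVM arrays, against 12.99, 12.89, 13.19, 13.39 and 13.45 on immature arrays. IVM replicate 4 reached into the immature range, and the difference was -1.29 ± 0.33 (adjusted p = 0.0188). HSPA9, the HSP70 of mitochondria, was at 8.13, 9.21, 8.46, 9.56 and 8.40 on IVM arrays, against 10.23, 10.43, 10.46, 10.63 and 10.52 on immature arrays. It did not overlap between the groups, at -1.70 ± 0.28 (adjusted p = 0.00192). HSPA5, the HSP70 of the endoplasmic reticulum also known as BiP, ran at 10.34, 11.93, 11.70, 13.03 and 9.38 on IVM arrays, against 12.73, 11.38, 13.16, 13.23 and 12.61 on immature arrays. Its groups overlapped (-1.35 ± 0.72, adjusted p = 0.216), as did those of its other varying probe set (-1.04 ± 0.65, adjusted p = 0.298). HSPA14, a ribosome-bound HSP70, was higher without overlap at 0.63 ± 0.15 (adjusted p = 0.0114), a difference of -0.30 after centring on the poly-A controls.

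Of the 12 probe sets for BAG proteins and HSPBP1, which bind HSP70 and act on its nucleotide exchange or clients, 2 fell, 0 rose and 6 varied. HSPBP1 had levels of 7.79, 7.48, 7.50, 7.42 and 7.90 in IVM oocytes, against 9.94, 9.83, 9.37, 10.15 and 10.19 in immature oocytes. The groups stayed well apart, with a difference of -2.28 ± 0.18 (adjusted p = 2.69e-05). Only leaving out IVM replicate 5 or immature replicate 3 kept this call, and without any of the other 8 arrays the adjusted p was 1.11e-04 to 1.89e-04. BAG2, which inhibits the HSP70-bound ubiquitin ligase CHIP, had 6.96, 6.89, 6.82, 6.36 and 6.96 on Bt.10885.2.S1_at in IVM oocytes, against 8.71, 8.95, 8.54, 8.93 and 8.88 in immature oocytes. It fell 4.01-fold with no overlap (SE of 0.14 on the log2 scale, adjusted p = 1.32e-05, and 1.03e-04 without immature replicate 5). BAG1, BAG4 and BAG5 differed by 0.38, 0.11 and -0.60 (adjusted p = 0.376, 0.565 and 0.00521).

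J proteins made up 36 of the probe sets, of which 25 varied, 4 fell and 1 rose. DNAJB1, the J protein that partners HSP70 in the stress response, had the deepest fall of all members. It stood at 6.24, 6.44, 6.18, 6.76 and 6.05 in IVM oocytes, against 11.85, 11.39, 11.91, 11.84 and 11.95 in immature oocytes. Nothing came near an overlap, and the difference of -5.46 ± 0.16 is a 43.9-fold fall (adjusted p = 1.24e-07). A second DNAJB1 probe set (Bt.28288.1.S1_at) was also lower on every IVM array, by 1.67 ± 0.33 on the log2 scale (adjusted p = 0.00532).

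All 3 type A J proteins on the array, which are built like bacterial DnaJ, were lower without overlap, as were 29.3% of all varying probe sets. DNAJA4 was at 8.24, 7.63, 7.24, 8.39 and 7.56 on IVM arrays, against 10.36, 10.91, 10.81, 10.45 and 10.62 on immature arrays. DNAJA4 fell by 2.82 ± 0.24 on the log2 scale (adjusted p = 4.80e-05), a call kept without IVM replicate 4 and lost without any other single array (adjusted p of 1.11e-04 to 3.01e-04). DNAJA1 and the mitochondrial DNAJA3 were at -1.95 ± 0.27 and -1.85 ± 0.18 and missed the threshold (adjusted p = 7.58e-04 and 1.07e-04, and 4.33e-05 for DNAJA3 without IVM replicate 4). DNAJB6, known in human cells for holding back aggregation, had levels of 10.70, 10.71, 10.96, 10.39 and 10.80 in IVM oocytes, against 12.68, 12.81, 12.75, 12.54 and 12.70 in immature oocytes. Both groups were tight and apart, at -1.99 ± 0.10 (adjusted p = 2.96e-06). DNAJC11, a J protein of the mitochondrial membranes, fell by 1.78 ± 0.09 on the log2 scale (adjusted p = 3.15e-06), with 7.45, 7.69, 7.64, 7.92 and 7.63 on IVM arrays, against 9.42, 9.64, 9.48, 9.30 and 9.38 on immature arrays.

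DNAJB5 was the 1 member that rose. Its levels were 8.82, 8.74, 9.22, 8.75 and 9.16 in IVM oocytes, against 7.29, 7.04, 6.89, 7.19 and 7.20 in immature oocytes. The 5 IVM arrays all lay above the immature arrays, by 1.82 ± 0.12 on average (adjusted p = 1.34e-05). After centring on the poly-A controls the difference was 0.88 and missed the threshold (adjusted p = 1.46e-04). Other J proteins were higher without passing: DNAJC7, which also binds HSP90, at 1.56 and 1.15 on its 2 varying probe sets (adjusted p = 8.00e-04 and 3.23e-04), DNAJB12 at 1.55 and 0.24 (adjusted p = 0.00114 and 0.00814), and DNAJC27 at 0.75 (adjusted p = 0.00819), all without overlap. After centring on the poly-A controls the second DNAJB12 probe set was at -0.70 and DNAJC27 at -0.18. DNAJC14 was lower on both of its varying probe sets, at -1.52 and -0.79 (adjusted p = 1.54e-04 and 0.00165). J proteins of the mature oocyte thus stood on both sides of 0, with 15 varying probe sets lower and 10 higher. Over all 9460 varying probe sets 4025 were lower and 5435 higher. The 15 include a DNAJC10 probe set at -0.00.

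**Figure D2:**
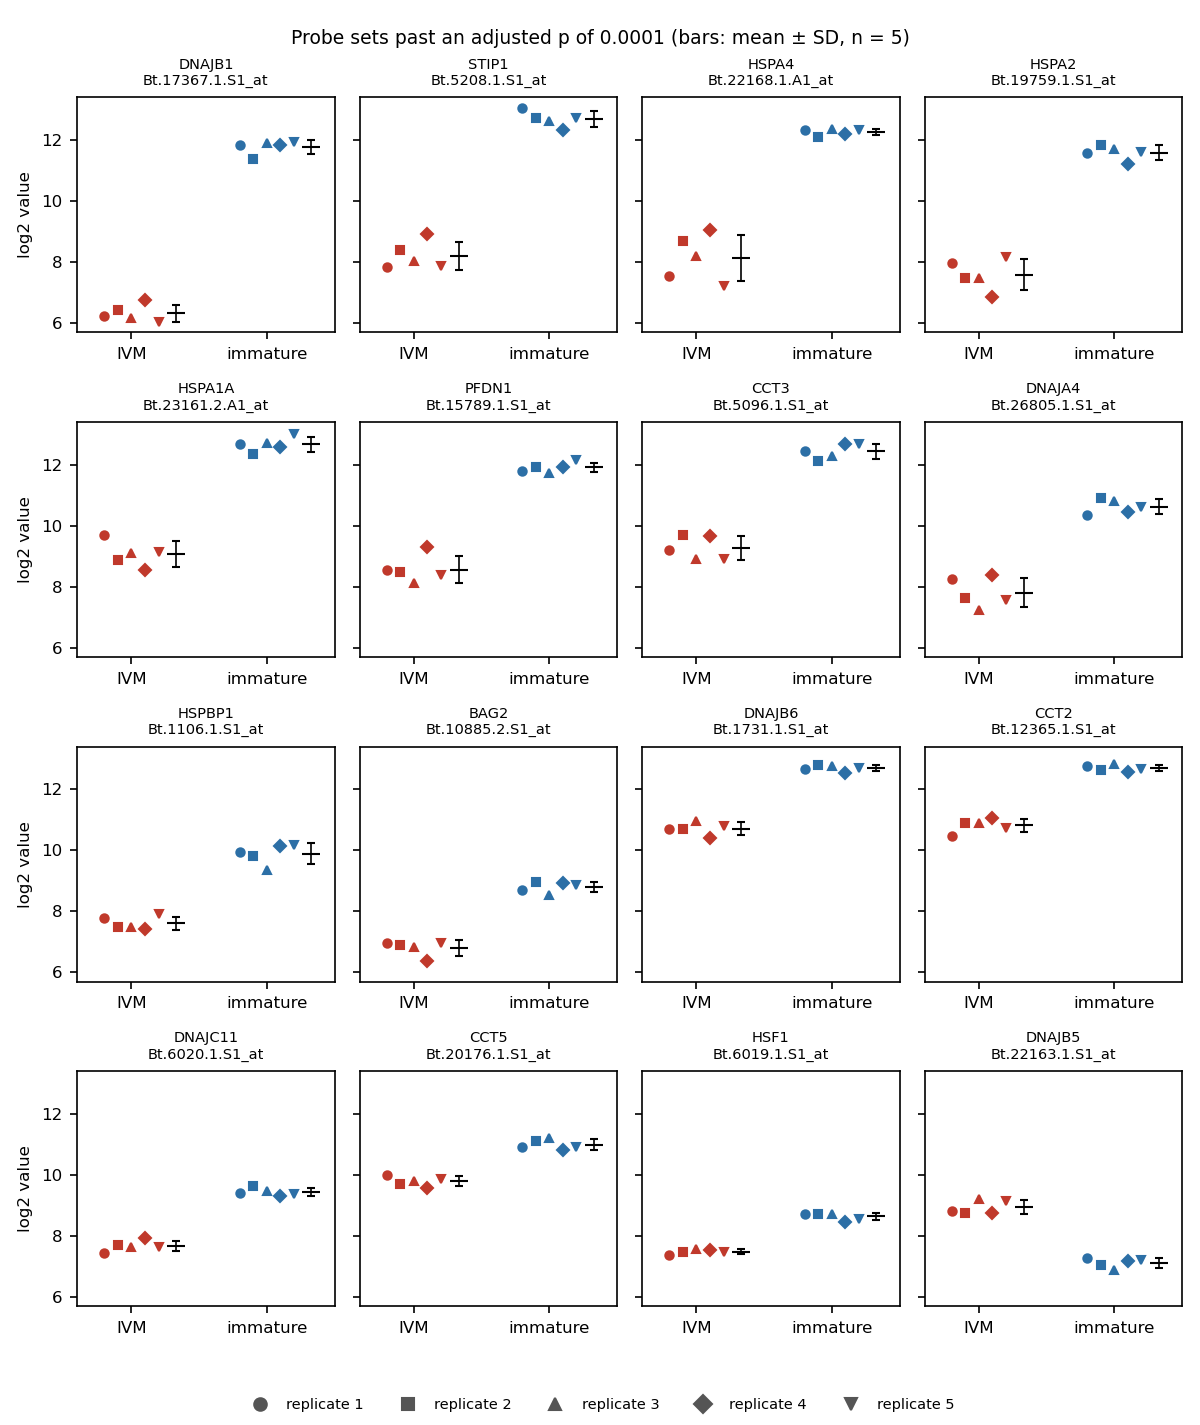
Level (log2) on each array of the 16 member probe sets past an adjusted p of 0.0001, IVM left and immature right, with a symbol for each replicate number and bars for mean ± SD (n = 5). In 15 panels all IVM arrays lie below all immature arrays, with DNAJB1 farthest apart, and in the DNAJB5 panel they lie above.

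All 6 probe sets of HSP90 and its co-chaperones varied, and 1 of them fell. STIP1, the adaptor between HSP70 and HSP90, had levels of 7.84, 8.39, 8.05, 8.92 and 7.87 in IVM oocytes, against 13.05, 12.74, 12.63, 12.34 and 12.74 in immature oocytes. The gap was wide on every array, and the difference of -4.49 ± 0.23 is 22.5-fold (adjusted p = 2.77e-06). AHSA1, which speeds up the ATPase of HSP90, was higher without overlap at 0.78 ± 0.15 (adjusted p = 0.00415), a difference of -0.16 after centring on the poly-A controls. HSP90AB1, the constitutive cytosolic HSP90, was at 12.22, 12.40, 11.38, 12.26 and 11.72 on IVM arrays, against 11.60, 11.07, 11.58, 12.02 and 11.74 on immature arrays. Its groups overlapped at 0.39 ± 0.24 (adjusted p = 0.288). HSP90B1, the HSP90 of the endoplasmic reticulum, was at 10.67, 10.61, 11.77, 11.69 and 11.28 on IVM arrays, against 11.21, 10.57, 10.71, 11.25 and 11.21 on immature arrays. These overlapped too, at 0.21 ± 0.28 (adjusted p = 0.666).

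HSP90AA1, the inducible cytosolic HSP90, had 2 probe sets that differed in opposite directions. On Bt.23179.1.S2_at it stood at 11.02, 12.05, 11.85, 12.84 and 10.85 in IVM oocytes, against 13.79, 13.67, 13.86, 13.65 and 13.62 in immature oocytes (3.99-fold lower, SE of 0.36 on the log2 scale, adjusted p = 0.00348). On Bt.23179.1.S1_at it stood at 11.63, 12.36, 12.49, 11.43 and 12.08 in IVM oocytes, against 11.64, 10.44, 11.11, 10.88 and 10.32 in immature oocytes (1.12 ± 0.31, adjusted p = 0.0266). Neither reached 0.0001, so the data give HSP90AA1 no single direction.

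Varying probe sets of HSPA4, BAG2 and DNAJC10 also differed in sign. How far the differences of both probe sets of a gene lay apart is given as a description, with no test, since these 4 genes were chosen for that disagreement. The second HSPA4 probe set (Bt.1908.1.S1_at) was at 9.35, 9.26, 8.89, 9.63 and 9.26 in IVM oocytes, against 8.65, 8.90, 8.82, 8.50 and 8.77 in immature oocytes, a difference of 0.55 ± 0.14 (adjusted p = 0.0167) beside the -4.12 of the first. The differences lay 4.67 ± 0.33 apart for HSPA4, 3.11 ± 0.49 for HSP90AA1, 2.05 ± 0.09 for BAG2 and 0.77 ± 0.28 for DNAJC10 (SE over arrays). DNAJC10 is a reductase of the endoplasmic reticulum, and its probe sets differed by 0.77 and -0.00. The second BAG2 probe set (Bt.10885.1.A1_at) differed by 0.05 (adjusted p = 0.842). Of 11 member genes with at least 2 varying probe sets, 4 (36.4%) had opposite signs, and among all 762 such genes on the array 205 (26.9%) did. With probe sets past an adjusted p of 0.05 in both directions it was 2 of 11 (18.2%), HSP90AA1 and HSPA4, against 87 of 762 (11.4%). Which transcript ends these probes read was not analysed here.

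**Figure D3:**
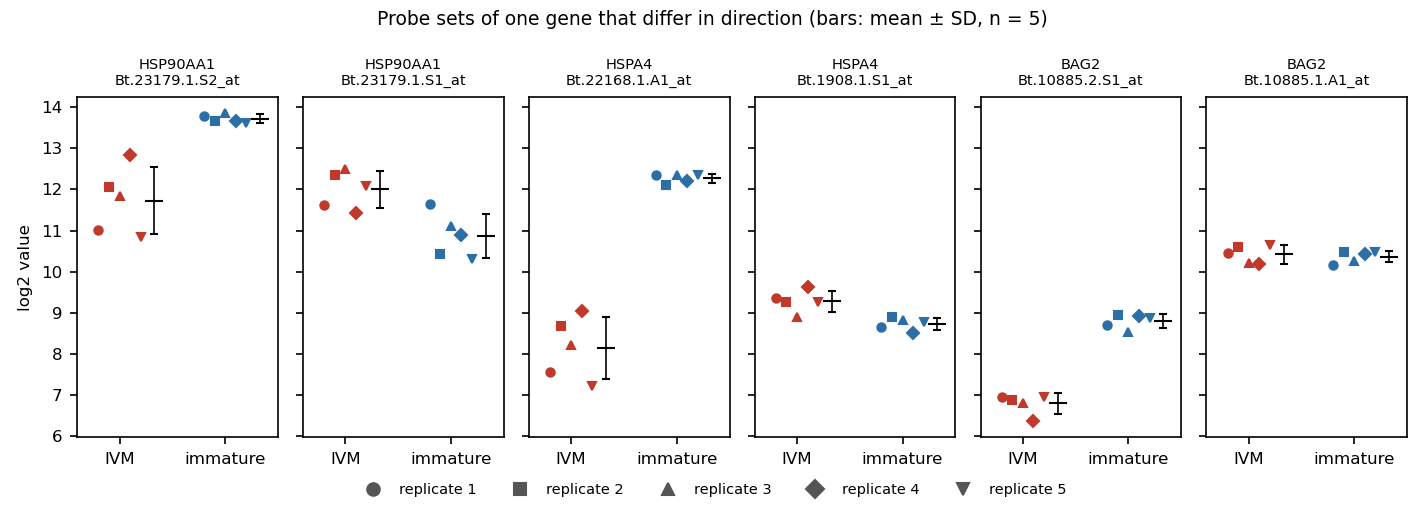
Level (log2) on each array for both varying probe sets of HSP90AA1, HSPA4 and BAG2, IVM left and immature right, with bars for mean ± SD (n = 5). The first probe set of each gene lies lower on all IVM arrays, and the second does not.

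Of the 6 TRiC subunits on the array, each with 1 probe set, 3 fell, 0 rose, and 5 varied with a median difference of -1.60. CCT3 had levels of 9.20, 9.69, 8.91, 9.67 and 8.92 in IVM oocytes, against 12.45, 12.12, 12.27, 12.68 and 12.68 in immature oocytes, and fell by 3.16 ± 0.20 on the log2 scale (adjusted p = 9.43e-06). CCT2 had 10.48, 10.88, 10.91, 11.06 and 10.74 in IVM oocytes, against 12.76, 12.62, 12.84, 12.58 and 12.68 in immature oocytes, and fell by 1.88 ± 0.11 (adjusted p = 5.21e-06). CCT5 had 10.01, 9.69, 9.81, 9.57 and 9.88 in IVM oocytes, against 10.91, 11.12, 11.21, 10.80 and 10.92 in immature oocytes. It fell by 1.20 ± 0.11 (adjusted p = 5.80e-05), but without any 1 of the 10 arrays its adjusted p was 1.18e-04 to 3.27e-04. The 3 subunits had no overlap between groups.

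The remaining TRiC subunits missed the threshold. CCT4 was at 9.20, 10.43, 9.77, 11.56 and 8.69 in IVM oocytes, against 11.44, 11.16, 11.95, 11.74 and 11.36 in immature oocytes (-1.60 ± 0.52, adjusted p = 0.048). CCT6A was at 8.97, 11.17, 10.02, 12.01 and 8.34 in IVM oocytes, against 7.50, 6.03, 8.75, 10.05 and 7.81 in immature oocytes (2.08 ± 0.95, adjusted p = 0.147). Both overlapped, through IVM replicate 4 in the case of CCT4, and the spread of CCT6A was among the widest of all members. CCT8 was one of the flat probe sets, and TCP1 and CCT7 were not analysed here. Prefoldin, which passes chains on to TRiC, had 2 varying probe sets of 7. PFDN1 had levels of 8.54, 8.48, 8.11, 9.30 and 8.38 in IVM oocytes, against 11.80, 11.93, 11.74, 11.92 and 12.16 in immature oocytes, and fell by 3.35 ± 0.21 on the log2 scale (adjusted p = 8.09e-06), with no overlap. PFDN5 was lower without overlap at -0.87 ± 0.19 (adjusted p = 0.00819).

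**Figure D4:**
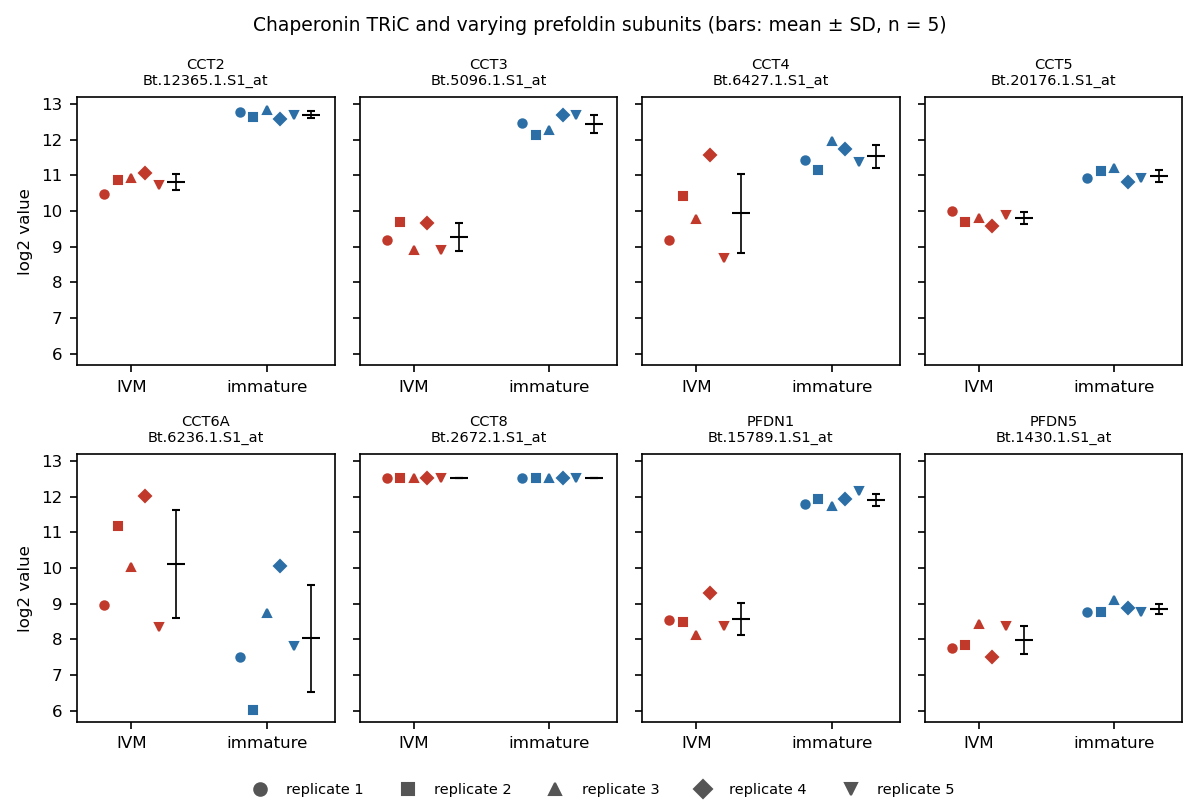
Level (log2) on each array of the 6 TRiC subunits and the 2 varying prefoldin subunits, IVM left and immature right, with bars for mean ± SD (n = 5). CCT2, CCT3, CCT5 and PFDN1 form separate clusters, CCT4 and CCT6A overlap, and CCT8 is flat.

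Both probe sets of the mitochondrial chaperonin varied, and limma called neither. HSPD1 was at 10.35, 11.34, 10.61, 12.11 and 10.14 on IVM arrays, against 11.05, 10.86, 11.32, 11.57 and 11.18 on immature arrays (-0.29 ± 0.38, adjusted p = 0.67). HSPE1, its lid and its next neighbour in the gene annotation, was at 10.59, 10.91, 10.82, 10.89 and 10.72 on IVM arrays, against 10.76, 10.75, 10.82, 11.01 and 10.91 on immature arrays (-0.06 ± 0.08, adjusted p = 0.616). The groups overlapped for both. Among small heat shock proteins, which hold unfolded chains without ATP, HSPB1 alone varied. It was at 11.40, 13.07, 12.85, 13.82 and 11.36 on IVM arrays, against 10.15, 6.86, 11.23, 11.70 and 9.80 on immature arrays (2.55 ± 0.97, adjusted p = 0.0863), with overlap. Its second varying probe set was higher without overlap at 0.57 ± 0.11 (adjusted p = 0.00595), a difference of -0.37 after centring on the poly-A controls.

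HSF1 fell with little spread between arrays. Its levels were 7.37, 7.47, 7.57, 7.55 and 7.48 in IVM oocytes, against 8.73, 8.71, 8.72, 8.47 and 8.57 in immature oocytes. The groups were apart on every array, by -1.15 ± 0.06 on average, or 2.22-fold (adjusted p = 3.59e-06). HSF2, a related factor active in germ cells, was at 8.44, 8.48, 7.74, 9.49 and 7.51 on IVM arrays, against 7.07, 6.22, 7.94, 7.85 and 7.07 on immature arrays (1.10 ± 0.46, adjusted p = 0.118), and overlapped. HSF4 was flat. HSF2BP, which the rule takes by its letters but which is a binding partner of HSF2 and no heat shock factor, was higher without overlap at 0.62 ± 0.14 (adjusted p = 0.00891), a difference of -0.31 after centring on the poly-A controls.

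Chaperones of the endoplasmic reticulum and the prolyl isomerases passed the threshold in neither direction. Of the 11 probe sets for calreticulin, calnexin and the PDIA proteins, limma called 0 at 0.0001, and 4 varied. CALR, a lectin chaperone of the reticulum, was at 7.23, 7.71, 7.22, 8.81 and 6.96 on IVM arrays, against 8.31, 8.25, 8.07, 7.85 and 7.93 on immature arrays (-0.50 ± 0.34, adjusted p = 0.344). CANX, its membrane-bound relative, was at 11.83, 11.97, 11.55, 12.41 and 11.51 on IVM arrays, against 11.21, 11.18, 11.07, 11.62 and 11.35 on immature arrays (0.57 ± 0.19, adjusted p = 0.0508). Both overlapped. PDIA3 and PDIA5, which make disulfide bonds, differed by 0.78 ± 0.43 and 0.45 ± 0.18 (adjusted p = 0.236 and 0.0918). FKBP proteins, which turn proline bonds, had 12 probe sets with 0 called and 8 varying. Of all varying probe sets 12.1% were called lower and 2.38% higher, so 0 calls among so few do not set either group apart. FKBP1A, the receptor of the drug FK506, came nearest with 9.84, 10.02, 10.24, 10.11 and 10.14 in IVM oocytes, against 8.63, 7.92, 7.94, 8.81 and 8.33 in immature oocytes. It was higher on every IVM array by 1.74 ± 0.19 (adjusted p = 2.09e-04, and 1.59e-05 when only varying probe sets were fitted). FKBP4, an HSP90 partner in steroid receptors, was lower without overlap at -1.57 ± 0.25 (adjusted p = 0.00161).

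Members differed more between IVM arrays than between immature arrays, as varying probe sets in general did. The median SD of the 75 varying probe sets was 0.41 on IVM arrays and 0.21 on immature arrays (0.31 and 0.19 over all varying probe sets). The SD was larger in IVM for 61 of the 75, and for 7354 of all 9460 varying probe sets. One order of arrays, taken from the mean levels of the somatic cell markers below, was counted in the members. IVM replicate 4 was the highest and IVM replicate 5 the lowest IVM array, and immature replicate 2 the lowest immature array, for 14 of 75 varying members (18.7%), against 12.4% of all varying probe sets. Those 14 were FKBP3, FKBP14, HSPA4, both probe sets of HSPA5, HSPA8, DNAJB1, DNAJB9, DNAJC24, CCT4, CCT6A, HSF2, HSPD1 and HSPB1. Of the 14, 2 were called falls (HSPA4 and DNAJB1) and 12 were not called, where 16 of all 75 varying members were called.

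Mean levels of all 3 lists of somatic cell markers gave that order. IVM replicate 4 was the highest and 5 the lowest IVM array, and immature replicate 2 the lowest immature array. The 14 probe sets were picked by this order, so their match to the markers is by choice. The oocyte markers ran the other way. Their mean was lowest on IVM replicate 4 (9.60) and highest on IVM replicate 5 (10.96), and highest among immature arrays on replicate 2 (12.86). The cumulus markers (5 of 6 genes varied) averaged 9.03 to 11.50 on IVM arrays, against 6.71 to 7.62 on immature arrays. Immature replicate 2 was barely the lowest for them, at 6.71 against 6.72 on replicates 1 and 5. The granulosa markers (9 of 10 varied) averaged 7.84 to 9.25 on IVM arrays, against 7.69 to 10.18 on immature arrays. Other somatic markers (4 of 10 varied) averaged 7.51 to 9.66 on IVM arrays, against 6.62 to 8.55 on immature arrays, and PECAM1, PTPRC, COL1A1, COL1A2, HBA and HBB were flat. RNA of other cells and RNA of the oocyte cannot be told apart in a pool, and the part of these markers in the spread of the 14 probe sets was not tested.

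**Figure D5:**
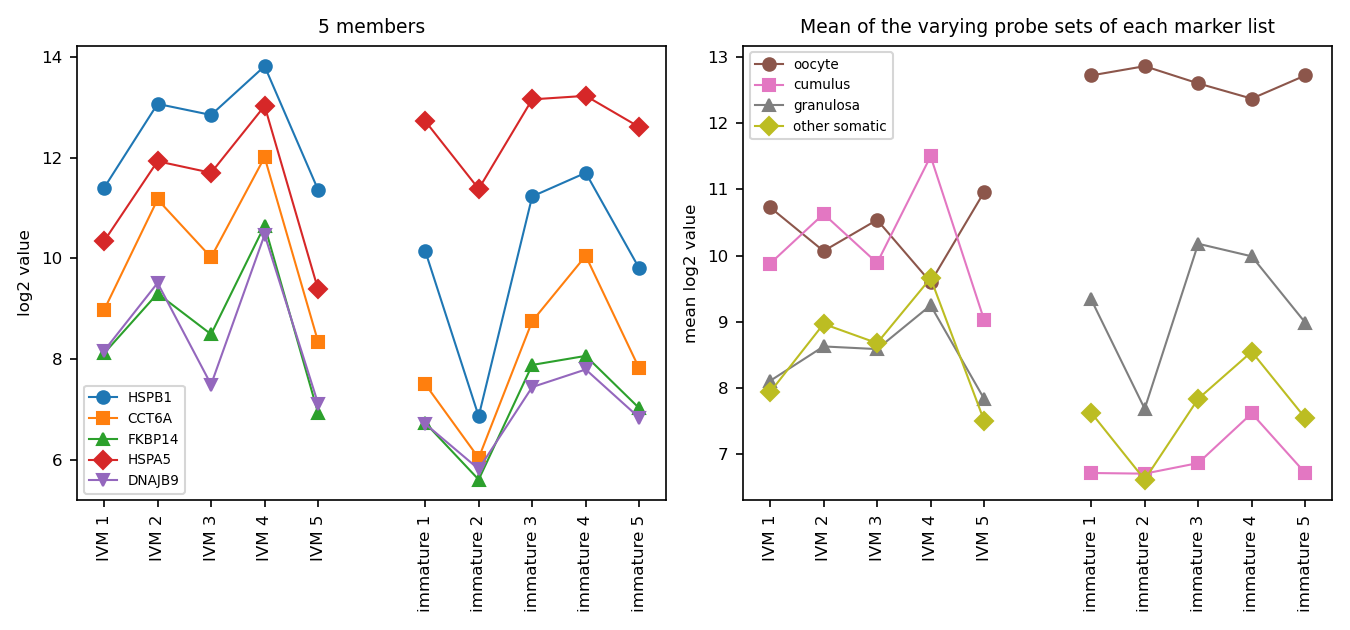
Left, level (log2) of HSPB1, CCT6A, FKBP14, HSPA5 and DNAJB9 on each of the 10 arrays, and right, the mean level (log2) of the varying probe sets of each cell marker list on the same arrays, with lines only joining the points of one gene or list. Within the IVM arrays, the 5 members and the cumulus, granulosa and other somatic means are highest on replicate 4, where HSPB1 reaches 13.82, and lowest on replicate 5. The 5 members are among those picked by this order of the somatic means.

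A second list held folding and stress genes outside the rule, with 63 genes and 86 probe sets on the array, of which 55 varied. Here 9 probe sets of 8 genes fell and 1 rose at 0.0001 (10.5% and 1.16%, against the 4.81% and 0.974% of all probe sets). At 0.05 it was 24 lower and 15 higher (27.9% and 17.4%, against 15.0% and 15.5% of all probe sets), with 21 and 14 of them varying. The falls included partners of the members above. TRAP1, the HSP90 of mitochondria, had 7.27, 7.47, 7.66, 7.12 and 7.54 in IVM oocytes, against 10.25, 10.56, 10.72, 10.58 and 10.36 in immature oocytes (-3.09 ± 0.13, adjusted p = 7.97e-07). The prefoldin-type subunits VBP1, UXT and URI1 fell, with differences of -2.74, -2.55 and -3.02 (adjusted p = 2.24e-05, 3.64e-06 and 2.82e-05). TBCE, a tubulin folding cofactor that takes over chains released by TRiC, fell on its 2 varying probe sets, with differences of -2.78 and -2.04 (adjusted p = 9.44e-07 and 8.14e-05). SGTA and TOMM34, which bind HSP70 and HSP90 through their TPR repeats, and NACA, which binds new chains at the ribosome, fell too, with differences of -2.29, -2.41 and -2.68 (adjusted p = 6.27e-06, 2.12e-06 and 3.64e-06). The calls for VBP1, URI1 and the second TBCE probe set were each lost without at least 1 array (highest adjusted p = 1.55e-04, 1.94e-04 and 4.75e-04), and the other 7 calls were kept.

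ST13, an HSP70 co-chaperone that steadies its ADP-bound state, went the other way. It had 11.59, 11.89, 11.88, 11.83 and 11.85 in IVM oocytes, against 10.48, 10.58, 10.56, 10.69 and 10.62 in immature oocytes, and rose by 1.23 ± 0.07 (adjusted p = 3.37e-06). Its second varying probe set was higher without overlap at 0.75 ± 0.11 (adjusted p = 0.00103). After centring on the poly-A controls the 2 probe sets were at 0.29 and -0.18 (adjusted p = 0.0284 and 0.233). With the replicate block limma called 0 probe sets of this list at 0.0001, and before adjustment 28 were lower and 21 higher at p under 0.05 (32.6% and 24.4%, against 17.0% and 19.7% of all probe sets).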

How the data were processed

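Pools of IVM and immature bovine oocytes were hybridized to 10 Affymetrix bovine arrays after 2 rounds of amplification from the 3′ end of the transcripts. For their qPCR the authors raised the possibility that poly(A) tail length affects which transcripts are amplified, and its part in these arrays was not tested. The authors read the arrays with GCOS, normalized them by quantiles and summarised each probe set with FARMS, and deposited the resulting log2 values. All arrays were used, with 0 columns of values unused. Precision rests on 5 arrays a group.

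The 112 control probe sets were set apart. Symbols from the platform's annotation were updated through gene identifiers (13263 probe sets) or accessions (2), and 27 kept the platform's symbol. The 86 probe sets with several genes and 10638 unnamed ones were tested but are not named. The 24016 probe sets were tested with the moderated linear model of limma 3.58.1 (R 4.3.3), IVM minus immature, without pairing, with Benjamini-Hochberg adjustment over all of them and the methods' false discovery rate of 0.0001 as the threshold. The methods' own test, SAM, was not run here. Fold changes are the log2 difference turned to a linear scale. The fit was tested on simulated data. Single values per array were compared with exact permutation tests over the 126 splits of 5 and 5. Where a gene was counted once, its probe set with the highest mean stood for it.

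Members and lists were chosen with earlier results of these data known. Named with the value on every array are genes past the threshold (up to 4 falls and 4 rises in each role group), a set of main chaperones named whatever they showed, and genes whose varying probe sets differ in sign. CCT4, CCT6A, HSPB1, FKBP1A, the genes named from the second list and members given without array values were chosen after their values were seen. Sequences of the members were not analysed here. By the methods, complexes were divided between both groups and replicates were days of collection, which would put pools of both groups on each day, but the labels only number the pools. Across probe sets, arrays of one number deviated from their group means with correlations of 0.143, -0.347, 0.0872, 0.672 and 0.359 for replicates 1 to 5, and not all were positive. The main fit is unpaired, and the blocked fit is given beside it. Alternatives were the varying probe sets alone, the replicate block, a mean-variance trend, a second quantile normalization, centring on the poly-A controls, no dim probe sets, each array left out, the arrays at one level of the hybridization controls and a threshold of 0.05. Fits that combine the hybridization-level arrays with varying probe sets, and counts at 0.05 under another alternative, were added after seeing the data. Python 3.11.15 was used with matplotlib 3.10.9, scipy 1.17.1, numpy 2.4.6 and pandas 2.3.3.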

Additional observations from a re-analysis of the deposited data

Results flagged for a closer look

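In 5 of 150 groups of 5 arrays checked, over the 75 varying member probe sets, 1 array stood far from the other 4, and chance flags about 1 group in 20. BAG2 (Bt.10885.2.S1_at) was at 6.36 on IVM replicate 4, below the 6.82 to 6.96 of the other IVM arrays. DNAJB1 (Bt.17367.1.S1_at) was at 11.39 on immature replicate 2, below the 11.84 to 11.95 of the other immature arrays and still far above every IVM array. DNAJB12 (Bt.26145.1.A1_at) was at 7.80 on IVM replicate 5, above 7.53 to 7.60. DNAJC14 (Bt.7218.1.S2_a_at) was at 8.98 on immature replicate 4, below 9.22 to 9.32. DNAJC6, the auxilin that helps HSP70 strip clathrin coats, was at 8.63 on immature replicate 2, above 8.10 to 8.22. Its difference was -0.74 ± 0.14 (adjusted p = 0.00487), and no array overlapped.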

How the results depend on the processing

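Against 15 falls and 1 rise among the members, and 9 and 1 in the second list, the replicate block gave 0 and 0 in both lists, and the hybridization-level arrays (5 IVM, immature replicates 4 and 5) gave 0 and 0 in both, or 3 and 0 in both when only varying probe sets were fitted. The blocked fit over varying probe sets passed 12 and 1 members, and 2 rises in the second list (9.83% and 1.82% of all varying probe sets). Fitting varying probe sets alone gave 4 rises among members and 3 in the second list, where 7.24% of all 9460 varying probe sets rose. Leaving out dim probe sets gave 2 among members (393 of all 12008 rose), and a second quantile normalization 2 in the second list (396 of all 24016 rose). At 0.05 there were 39 falls and 16 rises among members, and 24 and 15 in the second list, flat probe sets included (15.0% and 15.5% of all probe sets). At 0.05 the block gave 35 and 13 members and 22 and 11 others (13.0% and 12.6% of all probe sets). The varying probe sets gave 36 and 22 of 75 members and 24 and 19 of 55 others (33.1% and 40.4% of all 9460). Both together gave 36 and 22 of 75 members and 23 and 20 of 55 others (33.0% and 41.5% of all 9460). The hybridization-level arrays gave 22 and 7 members and 13 and 7 others (9.06% and 5.14% of all probe sets). Centring on the poly-A controls gave 90 falls and 0 rises among members, and 60 and 0 in the second list, since it moves all probe sets down. Over all 24016 probe sets it gave 18661 falls and 165 rises. Leaving out each array gave 10 to 15 falls and 1 rise among members, and 6 to 9 falls and 1 rise in the second list. The rule found 126 probe sets with the platform's own symbols too.

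Signs turned in 30 of 1499 differences under alternatives. Under the poly-A centring, which lowers each difference, those of BAG1 (-0.55), BAG2 (Bt.10885.1.A1_at, -0.89), BAG4 (-0.83), AHSA1 (-0.16), HSP90AB1 (-0.54), HSP90B1 (-0.72), HSPA4 (Bt.1908.1.S1_at, -0.39), HSPA14 (-0.30), HSPB1 (Bt.14181.1.A1_at, -0.37), HSF2BP (-0.31), CANX (-0.36), PDIA3 (-0.16), PDIA5 (-0.48), FKBP11 (-0.60), DNAJB12 (Bt.26145.1.A1_at, -0.70), DNAJC10 (Bt.2634.1.S1_at, -0.17), DNAJC18 (-0.41), DNAJC24 (-0.51) and DNAJC27 (-0.18) became negative. On the hybridization-level arrays BAG2 (Bt.10885.1.A1_at) was at -0.04 and HSP90B1 at -0.02, and that of BAG2 ran from -0.01 (without IVM replicate 5) to 0.11 with each array left out. DNAJC10 (Bt.28065.1.A1_at) was at 0.09 after the second quantile normalization and, with each array left out, from -0.35 to 0.33, above 0 without one of IVM replicates 1 (0.13), 3 (0.05) and 5 (0.33) or immature replicates 3 (0.06) and 4 (0.04). None of these had passed the threshold, and the cause was not tested. Flat probe sets and 5 arrays a group limit what could be called.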

Other observations

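Several other genes of the second list, chosen after their values were seen, varied without passing the threshold. In mitochondria, the protease subunit CLPP was at -1.28 ± 0.21 (adjusted p = 0.0021), with 7.54, 7.28, 8.35, 7.32 and 7.65 on IVM arrays, against 9.05, 9.01, 9.06, 8.60 and 8.83 on immature arrays. GRPEL2, a nucleotide exchange factor for HSPA9, was at -1.04 on one varying probe set and 0.26 on the other (adjusted p = 1.87e-04 and 0.014), and its relative GRPEL1 was at 0.12 (adjusted p = 0.0246). The reticulum chaperones HYOU1 and CRELD2 were higher on every IVM array, at 0.81 and 0.82 (adjusted p = 3.41e-04 and 3.08e-04), but at -0.13 and -0.12 after centring on the poly-A controls. TXNDC5, a disulfide isomerase, was at 2.02 (adjusted p = 0.00245) and kept 1.08 after that centring. ATF4, a transcription factor of the stress response, was lower on every IVM array at -0.70 (adjusted p = 0.00211), and its target DDIT3 was at 0.37 (adjusted p = 0.334) with overlap. SERPINH1, the collagen chaperone, was at 9.80, 10.33, 9.62, 13.66 and 8.85 on IVM arrays, against 8.02, 6.52, 8.98, 9.30 and 7.92 on immature arrays, the order in which the somatic markers had IVM replicate 4 highest and replicate 5 lowest.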
